A study of Homo sapiens with 18 samples.

Results

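The 9 genes described here encode the kinase AKT and the machinery around it: the AKT isoforms AKT1 and AKT2, the AKT co-activator TCL1A, the AKT kinase PDPK1 (PDK1), the brake proteins TSC1 and TSC2, the kinase MTOR, and RPTOR and RICTOR, the scaffold subunits that define mTOR complex 1 and mTOR complex 2. They were picked by gene name from the 60483 gene identifiers of the count tables, and all 9 were found. All 9 also passed the filter on low counts that left 16122 genes to be tested.

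HAIR-M, an established human line derived from marginal zone B cell lymphoma (MZL in the labels), supplied all the RNA. One set of cultures received 5 nM copanlisib, an inhibitor of phosphoinositide 3-kinase (PI3K), and the other received the solvent DMSO, each for 4, 8 or 12 h. Each of these 6 groups had 3 RNA sequencing libraries, 18 in all, with 13587017 to 25566761 reads counted on genes per library. A single cell line was used, the DMSO libraries of the same time were the controls, and the labels do not say that replicates were separate cultures, so the p-values speak of the scatter among these libraries alone, which may be technical.

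PI3K makes the membrane lipid PIP3, which draws AKT and PDPK1 to the plasma membrane, where PDPK1 phosphorylates the activation loop of AKT and mTOR complex 2 its tail. TCL1A, a small protein of immature and mature B cells that can drive lymphoid tumours when expressed too highly, binds AKT and raises its activity. Active AKT phosphorylates TSC2 and so takes the TSC1-TSC2 brake off the GTPase RHEB, which switches on mTOR complex 1, the driver of protein and lipid synthesis. These steps run through phosphorylation, which RNA counts do not measure, so the values below are transcript levels only.

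Of the markers checked, the 6 B cell genes, MS4A1, CD79A and PAX5 among them, summed to 1357 to 1999 CPM (the depth-scaled read count) per library. T and NK cell markers summed to 11.8 to 19.8 CPM, mostly NKG7, with CD3D and CD3G at 0 reads in every library, myeloid markers to 4.38 to 9.70 CPM and stromal markers to 0.666 to 1.78 CPM. The extraction text of the labels speaks of retinas, and 7 retina markers summed to 5.81 to 10.6 CPM, mostly PDE6B, with RPE65 at 0 reads. At 4 h, the copanlisib libraries 1 and 2 differed from the remaining 16 libraries, with 8.73% and 5.22% unmapped reads and 12.4% and 12.6% of gene reads from mitochondrial genes, while replicate 3 of that group had 2.34% and 10.1%. The 4 h log2 fold changes also fell with gene GC content, with a median of 0.13 in the lowest and −0.22 in the highest of 5 equal GC classes, against −0.03 and 0.01 when replicate 3 was the sole copanlisib library. The 4 h fold changes of the members, and the 4 h counts of the pathway lists, are therefore given also with that single library. Its spread is then assumed to be that of the other groups. At 8 and 12 h the trend with GC content ran the other way and was smaller. The median was −0.08 in the lowest and 0.095 in the highest class at 8 h, and −0.06 and 0.05 at 12 h.

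TCL1A had the largest log2 fold change of the 9 genes at 8 and 12 h, and its promoter is shown for that reason. The gene (ENSG00000100721.9) lies on the minus strand at chr14:95709967-95714196 (GRCh38, GENCODE 29). The 250 bases before its RefSeq start (chr14:95714126-95714375, minus strand, GRCh38.p14) read as follows, 5′ to 3′, with the match to the TATA box letters TATAAA in capitals.
TCL1A promoter: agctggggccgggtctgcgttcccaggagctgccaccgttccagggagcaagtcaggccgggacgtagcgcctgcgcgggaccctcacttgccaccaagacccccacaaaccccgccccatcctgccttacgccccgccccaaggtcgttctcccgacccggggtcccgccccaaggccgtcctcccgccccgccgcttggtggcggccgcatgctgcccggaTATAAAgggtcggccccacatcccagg
The TATAAA match begins 27 bases before the RefSeq start, and GENCODE 29 also annotates a transcript that starts inside this window. Searched on both strands, TATAAA was found in 10.7% of the 35116 RefSeq promoters of this length, and in 2 of the 12 annotated starts of the 9 genes, those of TCL1A and RPTOR. The core motif of FOXO factors, TGTTTAC, was found in 2.98% of all promoters and in none of the 12 starts. The window of TCL1A was 71.6% G or C. These matches describe letters in a window and show no factor bound there.

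Per kilobase of the longest coding transcript, TCL1A was by far the most abundant of the 9 transcripts. In the 9 DMSO libraries it had 332, 356 and 382 CPM per kilobase (lowest, median and highest). AKT1 followed with 48.0, 51.2 and 51.5, and AKT2 with 27.9 to 31.8. AKT1 was thus the higher of these AKT isoforms in every DMSO library. MTOR (9.39, 12.6 and 13.4) and TSC2 (9.46, 10.6 and 13.2) came next and overlapped. RPTOR had a median of 6.03 and PDPK1 of 5.71, also with overlapping libraries, and RICTOR (3.63) and TSC1 (3.39) were lowest and overlapped as well. The number of reads behind a value ranged from 389 for TSC1 to 19796 for TCL1A.

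**Figure D1:**
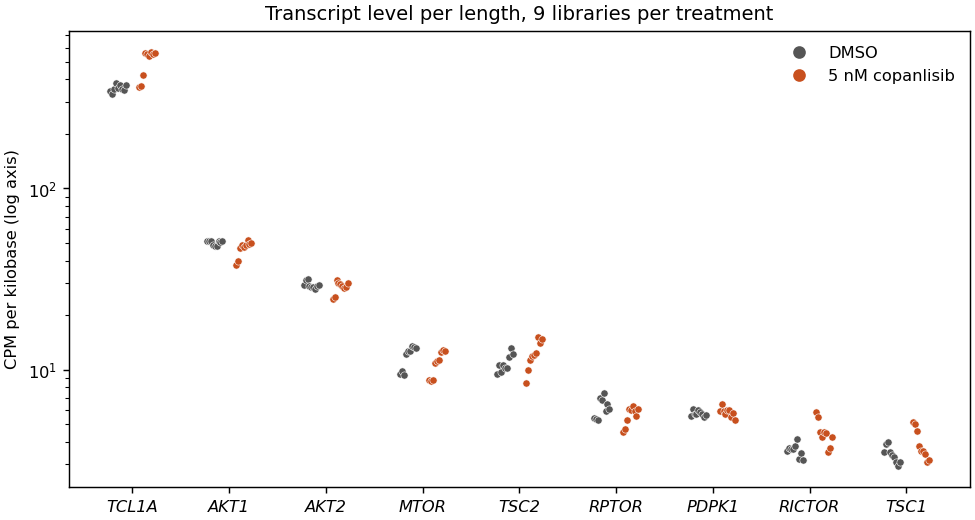
Transcript level per length (CPM per kilobase of the longest coding transcript, log axis) of each of the 9 genes, 1 point per library, 9 DMSO and 9 copanlisib libraries in order of time. TCL1A lies above all others, at 332 to 382 in DMSO, and TSC1 has the lowest median, 3.39.

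Copanlisib raised some of these genes and lowered others, mostly by small amounts. By edgeR's quasi-likelihood test with Benjamini-Hochberg adjustment over all genes, TCL1A, TSC1 and RICTOR rose and AKT1, AKT2 and MTOR fell at 4 h. At 8 h TCL1A, TSC2 and RICTOR rose and MTOR and RPTOR fell. At 12 h TCL1A, TSC2 and RICTOR rose and none fell, a count that was also 0 at an unadjusted p under 0.05 and by DESeq2 and limma-voom. After a correction for gene GC content, MTOR did fall at 12 h (−0.10, edgeR adjusted p = 0.040). Without that correction 6 of 9 members passed at 4 h, 5 at 8 h and 3 at 12 h, where 38.4%, 33.1% and 30.3% of all tested genes passed. At 4 h 3 members rose (17.7% of all tested genes did) and 3 fell (20.7%). At 8 h 3 rose (14.8%) and 2 fell (18.3%), and at 12 h 3 rose (13.8%) and 0 fell (16.5%). The median log2 fold change of the 9 genes was −0.01, 0.05 and 0.01 at the 3 times, beside 0.01, 0.02 and 0.00 for all tested genes. With only replicate 3 for copanlisib at 4 h, the log2 fold changes of TCL1A, TSC1, TSC2 and RICTOR were 0.30, 0.27, 0.18 and 0.33. Those of AKT1 and MTOR were both −0.13, and those of AKT2, PDPK1 and RPTOR were 0.02, 0.04 and −0.02.

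**Figure D2:**
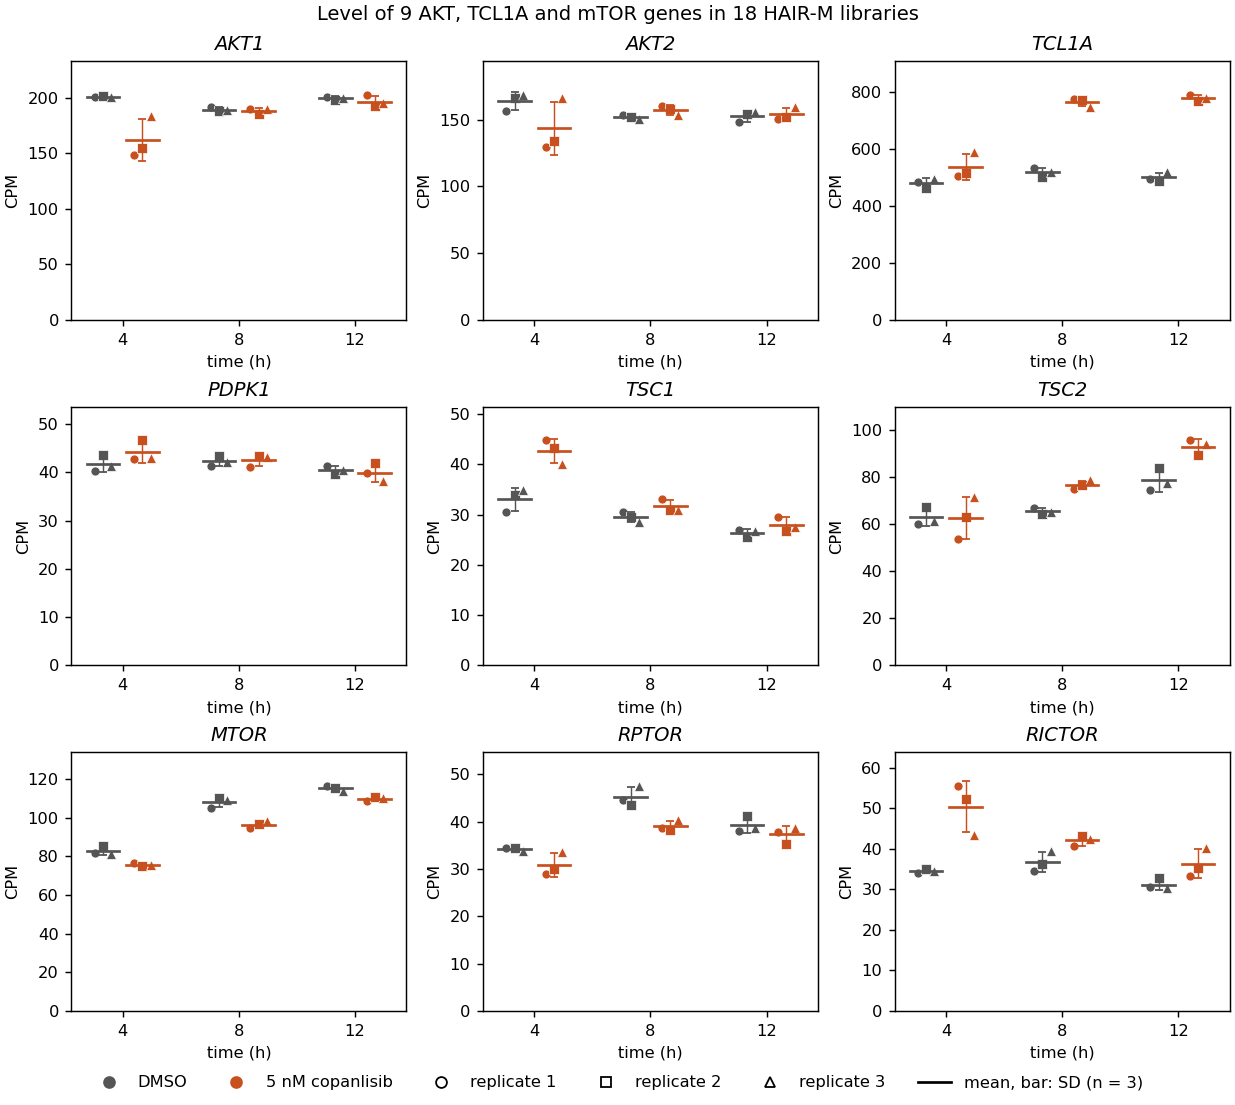
CPM of each gene by time in the 18 libraries (points, with the replicate number as shape), with the mean and SD of 3 libraries, on axes that start at 0. TCL1A separates between treatments at 8 and 12 h (749 to 791 CPM against 490 to 533), while replicates 1 and 2 of copanlisib at 4 h lie below replicate 3 in AKT1 and AKT2 and above it in RICTOR.

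TCL1A rose at every time. The DMSO libraries held 484, 463 and 496 CPM after 4 h, 533, 504 and 521 after 8 h and 497, 490 and 519 after 12 h. With copanlisib the level was 508, 517 and 589 CPM after 4 h, 776, 774 and 749 after 8 h and 791, 770 and 779 after 12 h. Libraries given copanlisib lay above the DMSO libraries of the same time in all 3 comparisons, by little at 4 h and with a wide gap at 8 and 12 h. The log2 fold change was 0.16 ± 0.05 at 4 h (SE, edgeR adjusted p = 0.00844), 0.56 ± 0.05 at 8 h (adjusted p = 6.9e-10) and 0.64 ± 0.05 at 12 h (adjusted p = 1.0e-10), which is 1.12-fold, 1.48-fold and 1.55-fold. In bulk RNA, a change in the share of cells that express a gene and a change of its RNA per cell cannot be told apart.

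The rise of TCL1A was larger at 8 h than at 4 h. Its effect at 8 h exceeded that at 4 h by 0.40 ± 0.07 on the log2 scale (edgeR adjusted p = 5.0e-04), and 12 h and 8 h differed by 0.07 ± 0.07 (adjusted p = 0.84). When replicate 3 was the only copanlisib library at 4 h, the 4 h log2 fold change was 0.30 ± 0.05 (edgeR adjusted p = 2.7e-06) and the difference between 8 h and 4 h was 0.26. After a correction for gene GC content these values were 0.25 and 0.25, both past the threshold (edgeR adjusted p = 3.1e-08 and 3.2e-04). Without replicate 3, the 4 h value was 0.09 (edgeR adjusted p = 0.042), and with only the 6 libraries of 4 h in the fit it was 0.15 (adjusted p = 0.14). In order of level, copanlisib at 12 h and at 8 h were highest and overlapped, copanlisib at 4 h stood below them, and its libraries overlapped those of DMSO at 8 h. DMSO at 12 h overlapped each of the other DMSO groups, while every DMSO library of 8 h lay above every DMSO library of 4 h. No difference between DMSO groups passed in the fit of all libraries (0.06 for 12 h against 4 h, edgeR adjusted p = 0.30). DMSO at 8 h against 4 h did pass after the GC correction (0.14, edgeR adjusted p = 6.5e-04), with no filter on low counts (0.13, 0.045) and with only the 6 libraries compared (0.12, 0.0095). Of the 6 B cell markers, 2 rose and 1 fell with copanlisib at 4 h, 4 rose at 8 h and 5 at 12 h, and their part in the result was not tested. Their summed level was 1641 to 1678 CPM with copanlisib against 1447 to 1486 in DMSO at 8 h, and 1951 to 1999 against 1640 to 1653 at 12 h. In DMSO alone it also went from 1357 to 1384 CPM at 4 h to that 12 h level, with 4 of the 6 higher and 1 lower.

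Among 9506 protein-coding genes that averaged 3 or more log2 CPM, the 3 patterns most like that of TCL1A over the 18 libraries included those of TMEM38A (Pearson r = 0.97) and HDAC7 (0.97). TMEM38A encodes a channel of the endoplasmic reticulum and HDAC7 a class IIa histone deacetylase of the lymphoid lineage. The libraries share 6 groups, so these values describe likeness and carry no test.

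AKT1 and AKT2 fell at 4 h and did not pass at 8 or 12 h. AKT1 (chr14:104769349-104795751, minus strand) had 200.4, 202 and 201 CPM in DMSO and 148, 155 and 184 CPM with copanlisib at 4 h. All 3 copanlisib libraries were lower, and replicates 1 and 2 were farther below DMSO than replicate 3. The log2 fold change was −0.31 ± 0.05 (edgeR adjusted p = 4.3e-05). It was −0.13 ± 0.05 with replicate 3 alone (edgeR adjusted p = 0.054), and −0.18 after the GC correction, AKT1 being in the highest of the 5 GC classes. At 8 h AKT1 stood at 188 to 192 CPM in DMSO and 186 to 190.1 with copanlisib, and the groups overlapped. They did so at 12 h too, with 198 to 201 CPM in DMSO and 192 to 203 with copanlisib. Its log2 fold changes of −0.01 (95% interval −0.12 to 0.10) at 8 h and −0.02 (−0.13 to 0.09) at 12 h did not pass (with the GC correction the 8 h value, −0.08, did, edgeR adjusted p = 0.039). The effect at 8 h was 0.30 ± 0.07 above that at 4 h (edgeR adjusted p = 0.0077). That difference was 0.12 when replicate 3 stood alone for copanlisib at 4 h (edgeR adjusted p = 0.38) and 0.10 after the GC correction (0.17).

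AKT2 (chr19:40230317-40285536, minus strand), the isoform best known from insulin signalling, had 156, 166 and 169 CPM in DMSO at 4 h. With copanlisib it had 130, 134 and 166 CPM, and replicate 3 lay within the range of the DMSO libraries. Its log2 fold change of −0.19 ± 0.06 passed (edgeR adjusted p = 0.015), but was 0.02 with replicate 3 alone (edgeR adjusted p = 0.81), −0.08 after the GC correction (0.078; AKT2 is in the highest GC class) and −0.20 with only the 6 libraries of 4 h in the fit (0.15). The call was also lost without replicate 1 or 2 of copanlisib (edgeR adjusted p = 0.098 and 0.10) and without replicate 2 or 3 of DMSO (0.067 and 0.064), and without replicate 3 of copanlisib the value was −0.31. Later values lay between 148 and 160.1 CPM in all 12 libraries, with log2 fold changes of 0.05 (95% interval −0.08 to 0.17) at 8 h and 0.01 (−0.12 to 0.14) at 12 h, and the effects at 8 h and 4 h differed by 0.24 (edgeR adjusted p = 0.053). The genes most like AKT1 over the 18 libraries were PITPNM1 (r = 0.98), C1orf122 (0.97) and SDC1 (0.97), and those most like AKT2 were PLEC (0.94), TMEM259 (0.93) and FBXW5 (0.93).

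PDPK1 (chr16:2537964-2603188, plus strand) passed in no comparison of treatments, of times in DMSO, or of the copanlisib effect between times. The copanlisib groups of different times were not tested against each other. All 18 libraries fell between 38.1 and 46.6 CPM, and the groups overlapped at each time. Its log2 fold change was 0.08 (95% interval −0.04 to 0.19) at 4 h, 0.01 (−0.11 to 0.13) at 8 h and −0.02 (−0.14 to 0.10) at 12 h. PDPK1 has a near-identical neighbouring copy, PDPK2P, and multimapping reads were left out of the counts, so its level is uncertain and may be too low.

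**Figure D3:**
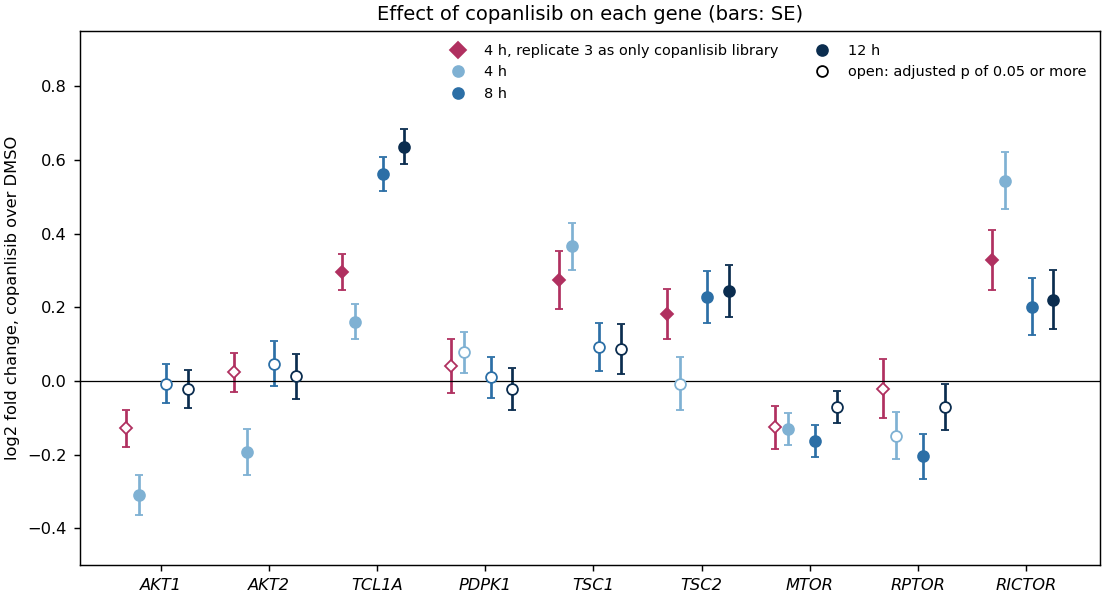
Log2 fold change of copanlisib over DMSO for each of the 9 genes (points, with SE bars) at 4, 8 and 12 h, and at 4 h with replicate 3 as the only copanlisib library (diamonds). Filled symbols passed an adjusted p of 0.05. TCL1A reaches 0.64 at 12 h, and AKT2 and RPTOR at 4 h lie closer to 0 in the diamonds (0.02 and −0.02) than in the circles (−0.19 and −0.15).

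Of the subunits of the TSC brake, TSC1 rose at 4 h and TSC2 at 8 and 12 h. TSC1 (hamartin, chr9:132891348-132946874, minus strand), which stabilises TSC2, had 30.5, 33.9 and 34.8 CPM in DMSO and 44.8, 43.4 and 40.1 CPM with copanlisib at 4 h. The groups did not overlap, and the log2 fold change was 0.37 ± 0.06 (edgeR adjusted p = 4.9e-05), or 0.27 ± 0.08 with replicate 3 alone (adjusted p = 0.0081). At 8 h TSC1 had 28.6 to 30.6 CPM in DMSO and 30.9 to 33.1 with copanlisib. At 12 h the groups overlapped, with 25.5 to 27.0 CPM in DMSO and 26.8 to 29.6 with copanlisib. Those log2 fold changes, 0.09 (95% interval −0.04 to 0.23) at 8 h and 0.09 (−0.05 to 0.23) at 12 h, did not pass. The effect at 8 h was 0.27 ± 0.09 lower than at 4 h (edgeR adjusted p = 0.036), which was no longer past the threshold when replicate 3 stood alone for copanlisib at 4 h (adjusted p = 0.37).

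TSC2 (tuberin, chr16:2047465-2089487, plus strand), which carries the GTPase-activating domain that acts on RHEB, rose at 8 and 12 h. It had 67.0, 64.4 and 65.1 CPM in DMSO and 74.9, 76.6 and 78.6 with copanlisib at 8 h. At 12 h the values were 74.4, 83.9 and 77.5 in DMSO and 95.7, 89.4 and 94.0 with copanlisib. Neither pair of groups overlapped. The log2 fold change was 0.23 ± 0.07 at 8 h (edgeR adjusted p = 0.014) and 0.24 ± 0.07 at 12 h (adjusted p = 0.0086). The 8 h call was lost without replicate 3 of copanlisib or replicate 2 of DMSO (edgeR adjusted p = 0.064 and 0.055). The 12 h call was lost without replicate 1 of DMSO (0.062). TSC2 is in the highest GC class, and the GC correction gave 0.14 at 8 h, still past the threshold (edgeR adjusted p = 0.015). At 12 h the correction gave 0.19, also past the threshold. The effects at 8 h and 4 h did not differ past the threshold (0.24, edgeR adjusted p = 0.10), but did without replicate 3 of copanlisib at 4 h (0.34, adjusted p = 4.3e-04).

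At 4 h the TSC2 libraries given copanlisib were widely spread. They held 53.7, 63.2 and 71.5 CPM, around the 60.0, 67.3 and 61.6 CPM of DMSO, and the log2 fold change was −0.01 (95% interval −0.16 to 0.14). With replicate 3 alone it was 0.18 ± 0.07 (edgeR adjusted p = 0.046), and after the GC correction 0.17 (adjusted p = 0.0075). TSC2 shares exon sequence on the opposite strand with NTHL1 and PKD1. Of its stranded reads 2.43% lay on the other strand, the most among the 9 genes.

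MTOR and RPTOR, the kinase and the scaffold of mTOR complex 1, fell with copanlisib, MTOR at 4 and 8 h and RPTOR at 8 h. MTOR (chr1:11106535-11262507, minus strand) had 81.6, 85.5 and 81.5 CPM in DMSO after 4 h, 105, 110.3 and 109 after 8 h and 117, 115 and 114 after 12 h. With copanlisib it had 76.4, 75.1 and 75.8 CPM after 4 h, 94.7, 96.7 and 98.4 after 8 h and 109, 110.6 and 110.2 after 12 h. Every copanlisib library lay below every DMSO library of its time. The log2 fold change was −0.13 ± 0.04 at 4 h (edgeR adjusted p = 0.020), −0.16 ± 0.04 at 8 h (adjusted p = 0.0038) and −0.07 at 12 h (95% interval −0.16 to 0.02, adjusted p = 0.22, or −0.10 with adjusted p = 0.040 after the GC correction). With replicate 3 alone the 4 h value was −0.13. The 4 h call was lost without replicate 2 of copanlisib (edgeR adjusted p = 0.057) or of DMSO (−0.10, 0.12). It was also lost with only the 6 libraries of 4 h in the fit (−0.14, 0.12) and with the counts without strand (0.060). Using no filter on low counts ended the 4 h call (0.18) and the 8 h call (0.066) as well. The change of the effect between times did not pass for MTOR (edgeR adjusted p = 0.75 for 8 h minus 4 h and 0.77 for 12 h minus 8 h).

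RPTOR (chr17:80544819-80966371, plus strand) had 44.5, 43.4 and 47.6 CPM in DMSO at 8 h and 38.6, 38.3 and 40.4 with copanlisib. The groups did not overlap, and the log2 fold change was −0.21 ± 0.06 (edgeR adjusted p = 0.010), but the call was lost without replicate 2 of copanlisib (0.052) or replicate 3 of DMSO (0.065). At 4 h it had 34.4, 34.3 and 33.8 CPM in DMSO and 28.9, 30.0 and 33.6 with copanlisib, where replicate 3 lay just below DMSO. The 4 h log2 fold change of −0.15 did not pass (edgeR adjusted p = 0.069). It was −0.02 with replicate 3 alone, 0.01 after the GC correction, and −0.21 without replicate 3, which did pass (adjusted p = 0.0041). At 12 h it had 38.1 to 41.2 CPM in DMSO and 35.4 to 38.8 with copanlisib, a log2 fold change of −0.07 (95% interval −0.20 to 0.06).

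RICTOR (chr5:38937919-39074408, minus strand), the scaffold of mTOR complex 2, rose at each time while MTOR and RPTOR did not. At 4 h it had 34.0, 35.1 and 34.7 CPM in DMSO and 55.6, 52.3 and 43.4 with copanlisib. RICTOR was higher by 0.54 ± 0.08 on the log2 scale (edgeR adjusted p = 4.0e-06). Here replicates 1 and 2 were higher than replicate 3, and RICTOR is in the lowest of the 5 GC classes. With replicate 3 alone the value was 0.33 ± 0.08 (edgeR adjusted p = 0.0019), and after the GC correction 0.42.

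At 8 h RICTOR had 34.7, 36.2 and 39.4 CPM in DMSO and 40.7, 43.2 and 42.4 with copanlisib. At 12 h it had 30.5, 32.9 and 30.2 CPM in DMSO and 33.3, 35.4 and 40.3 with copanlisib. The groups did not overlap at either time, but came close. The log2 fold changes of 0.20 ± 0.08 (edgeR adjusted p = 0.047) and 0.22 ± 0.08 (adjusted p = 0.040) lay just past the threshold. The GC correction raised both to 0.30 (edgeR adjusted p = 1.7e-05 and 5.5e-05). The 8 h call was lost on leaving out any 1 of its 6 libraries except replicate 3 of DMSO (edgeR adjusted p = 0.061 to 0.18) and in the paired fit with replicate number as a block (0.054), as well as by DESeq2 (0.052). Without replicate 3 of copanlisib the 12 h value was 0.14 (edgeR adjusted p = 0.28), and that call was also lost without replicate 2 of copanlisib (0.060) or replicate 1 or 3 of DMSO (0.12 and 0.13).

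Groups that did not overlap were seen for 6 of 9 members at 4 h, 6 at 8 h and 4 at 12 h, where 38.9%, 50.7% and 46% of all tested genes had such groups. At 4 h 3 were higher and 3 lower throughout (19% and 19.9% of tested genes). The counts were 4 higher and 2 lower at 8 h (24.5% and 26.2%) and 3 higher and 1 lower at 12 h (21.9% and 24.1%). The change of the copanlisib effect between 4 and 8 h passed for 4 members (19.1% of tested genes), upward for AKT1 and TCL1A (9.29%) and downward for TSC1 and RICTOR (9.86%). RPTOR also passed after the GC correction (−0.29, edgeR adjusted p = 0.013, against −0.06 without it), and AKT2 by DESeq2 and limma-voom (0.24 and 0.25, adjusted p = 0.048 and 0.039). That between 4 and 12 h passed for the same 4 genes (16.7%), again upward for AKT1 and TCL1A (8.98%) and downward for TSC1 and RICTOR (7.69%). Between 8 and 12 h no member passed by edgeR, DESeq2 or limma-voom, none had an unadjusted p under 0.05 by edgeR, and 0.0558% of tested genes passed (0.0372% upward and 0.0186% downward).

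Several members also changed with time in DMSO alone. Between 4 and 8 h, MTOR rose by 0.38 ± 0.04 (edgeR adjusted p = 2.1e-07) and RPTOR by 0.40 ± 0.06 (adjusted p = 2.4e-05) on the log2 scale. These 2 of 9 members passed where 29.8% of tested genes did (13.9% higher, 16% lower). With all libraries none fell by edgeR, DESeq2 or limma-voom (1 at an unadjusted p under 0.05, TSC1). Leaving out 1 library at a time gave −0.21 to −0.13 for TSC1. The edgeR adjusted p of these fits ran from 0.0255, past the threshold, to 0.241. Between 8 and 12 h TSC2 rose by 0.26 ± 0.07 (edgeR adjusted p = 0.0074) and RPTOR and RICTOR fell by 0.20 ± 0.06 and 0.23 ± 0.08 (adjusted p = 0.018 and 0.037), where 25.7% of tested genes passed (13.4% higher, 12.4% lower). The RPTOR call between 8 and 12 h was lost without any 1 of 4 of its 6 libraries (edgeR adjusted p = 0.056 to 0.10), and so was that of RICTOR (0.075 to 0.17).

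From 4 to 12 h in DMSO, MTOR rose by 0.48 ± 0.04, TSC2 by 0.32 ± 0.07 and RPTOR by 0.20 ± 0.06, and TSC1 fell by 0.33 ± 0.07, 4 of 9 members where 48.6% of tested genes passed (23.2% higher, 25.4% lower). These time comparisons share DMSO libraries with the copanlisib comparisons. Over the 18 libraries the gene most like MTOR was HNRNPM (r = 0.98), a splicing factor, then OGDH (0.97) and LARS2 (0.96), and that most like RPTOR was TPCN1 (0.90), then ADCY7 (0.90) and SAFB (0.90). The 3 nearest to TSC1 included MACO1 (0.96) and TLK1 (0.94). The nearest to TSC2 were CAPN1 (0.98), ZSWIM8 (0.97) and RNPEPL1 (0.96), those to RICTOR DMTF1 (0.97), PLAG1 (0.97) and UHRF2 (0.96), and those to PDPK1 ABHD17B (0.87), ARFGEF2 (0.86) and FBXW2 (0.83).

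The rest of the pathway was read from 6 lists of 93 other genes, of which 89 were tested. Of these 89 genes 20 rose and 31 fell at 4 h (57.3%, beside 38.4% of all tested genes), 11 rose and 22 fell at 8 h (37.1%, beside 33.1%), and 16 rose and 19 fell at 12 h (39.3%, beside 30.3%). When replicate 3 stood alone for copanlisib at 4 h, 13 rose and 20 fell (37.1%, beside 22.2%). The median log2 fold change of the 89 genes was −0.04, −0.02 and −0.01 at the 3 times. The pathway genes thus moved in both directions, and the members did so as well.

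Of 11 tested regulators of AKT, 3 rose and 4 fell at 4 h, 1 rose and 3 fell at 8 h, and 1 rose and 2 fell at 12 h. With replicate 3 alone for copanlisib at 4 h, 1 rose and 5 fell. TRIB3, a pseudokinase that binds AKT and a target of the stress factor ATF4, went from 48.0 ± 2.3 to 25.9 ± 4.2 CPM at 4 h (± SD, 3 libraries each). The log2 fold change of TRIB3 was −0.89 ± 0.08 at 4 h, −0.57 ± 0.09 at 8 h and −0.71 ± 0.09 at 12 h (edgeR adjusted p = 4.6e-09, 8.4e-06 and 4.7e-07), and −0.64 at 4 h with replicate 3 alone. PHLPP2, a phosphatase of the AKT tail, fell by 0.29 ± 0.08, 0.22 ± 0.08 and 0.27 ± 0.09, and PPP2R2A, a regulatory subunit of phosphatase PP2A, fell by 0.36 ± 0.06 at 8 h. At 4 h the log2 fold change of PPP2R2A was −0.13 (edgeR adjusted p = 0.11), or −0.37 with replicate 3 alone, which passed (1.9e-06), and that of PHLPP2 was then −0.33.

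Among 10 tested partners of the mTOR and TSC complexes 1 rose and 5 fell at 4 h, and 1 rose and 4 fell at 8 h and at 12 h. The single copanlisib library gave 1 that rose and 3 that fell at 4 h. AKT1S1 (PRAS40), an inhibitory subunit of mTOR complex 1 that AKT phosphorylates, fell from 69.8 ± 7.3 to 47.7 ± 7.0 CPM at 4 h, from 59.2 ± 2.5 to 48.1 ± 0.27 at 8 h and from 60.8 ± 5.0 to 43.2 ± 1.1 at 12 h. Its log2 fold changes were −0.56 ± 0.08, −0.30 ± 0.08 and −0.49 ± 0.08 (edgeR adjusted p = 4.5e-06, 0.0050 and 4.2e-05), and −0.34 at 4 h with replicate 3 alone (6.1e-04). PRR5, a subunit of mTOR complex 2, and TELO2, an assembly factor of mTOR, fell at 4 h by 0.72 ± 0.12 and 0.66 ± 0.11, which became −0.37 and −0.23 with replicate 3 alone, and did not pass later. The gene that rose at all times was DEPTOR, an inhibitor of mTOR, named after its values were seen and present at an average log2 CPM of only −0.14.

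Nutrient sensing at the lysosome made up the longest list, 29 genes, of which 4 rose and 11 fell at 4 h, 2 rose and 7 fell at 8 h, and 4 rose and 7 fell at 12 h. With replicate 3 alone for copanlisib, 3 of the 29 rose and 5 fell at 4 h. SEH1L and MIOS, subunits of the GATOR2 complex that relays amino acid supply to mTOR complex 1, fell at each time: SEH1L by 0.52 ± 0.05, 0.73 ± 0.05 and 0.54 ± 0.06, and MIOS by 0.47 ± 0.06, 0.61 ± 0.06 and 0.44 ± 0.06. With replicate 3 alone the 4 h values were −0.53 for SEH1L, −0.63 for MIOS and 0.52 for SESN3. SEH1L is also a nucleoporin. SESN3, a sestrin and a known FOXO target that restrains mTOR complex 1, rose by 0.69 ± 0.07, 0.25 ± 0.07 and 0.22 ± 0.07, from 42.2 ± 3.6 to 68.0 ± 6.9 CPM at 4 h.

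Of 9 tested genes that report energy and stress to the pathway, 2 rose and 2 fell at 4 h, 2 rose and 1 fell at 8 h, and 3 rose and 1 fell at 12 h. At 4 h none rose by edgeR with replicate 3 alone (1 at an unadjusted p under 0.05, PRKAB2) and 1 fell, DDIT4. DDIT4 (REDD1), a stress-induced inhibitor of mTOR complex 1, went from 228 ± 14.5 to 127 ± 24.4 CPM at 4 h, or −0.84 ± 0.08 on the log2 scale (edgeR adjusted p = 4.2e-09). It was −0.55 with replicate 3 alone, −0.36 ± 0.08 at 8 h and −0.39 ± 0.08 at 12 h. PRKAB2, a subunit of the energy sensor AMPK, rose by 0.37 ± 0.07, 0.27 ± 0.07 and 0.28 ± 0.08, though the 4 h value with replicate 3 alone, 0.18, did not pass (edgeR adjusted p = 0.13). PRKAG1, another AMPK subunit, rose at 4 h (0.18 ± 0.06) and 12 h (0.15 ± 0.06), but at 4 h not with replicate 3 alone (0.09, edgeR adjusted p = 0.45).

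Targets downstream of AKT split as well. Of 17 tested AKT substrates and related kinases, 5 rose and 5 fell at 4 h, 2 rose and 4 fell at 8 h, and 2 rose and 3 fell at 12 h. For 4 h with replicate 3 alone the counts were 3 and 4. CDKN1B, the cell cycle inhibitor p27, rose from 76.5 ± 1.7 to 109 ± 10.1 CPM at 4 h and was at 101 ± 2.0 and 102 ± 1.9 CPM with copanlisib at 8 and 12 h. Its log2 fold changes were 0.51 ± 0.05, 0.41 ± 0.05 and 0.45 ± 0.05 (edgeR adjusted p = 3.7e-08, 1.2e-06 and 3.4e-07). FOXO4, a FOXO transcription factor, rose by 0.33 ± 0.10, 0.62 ± 0.10 and 0.44 ± 0.10. CDKN1B was at 0.35 and FOXO4 at 0.42 at 4 h with replicate 3 alone, both past the threshold.

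Of 14 tested substrates of mTOR complex 1 and their translation factors, 5 rose and 5 fell at 4 h, 3 rose and 4 fell at 8 h, and 5 rose and 3 fell at 12 h. The 4 h counts were 5 and 3 with replicate 3 alone. EIF4E, the cap-binding translation factor, fell from 35.8 ± 0.95 to 24.6 ± 0.64 CPM at 4 h, with log2 fold changes of −0.54 ± 0.06, −0.57 ± 0.06 and −0.46 ± 0.06 (edgeR adjusted p = 8.9e-08, 4.5e-08 and 1.8e-06). EIF4EBP1, the repressor that binds EIF4E, fell by 0.43 ± 0.07, 0.43 ± 0.07 and 0.64 ± 0.07. ULK1, the kinase that starts autophagy, rose from 14.6 ± 0.36 to 22.7 ± 0.15 CPM at 8 h, by 0.36 ± 0.09, 0.64 ± 0.09 and 0.43 ± 0.09 at the 3 times. The 4 h values with replicate 3 alone were −0.57 for EIF4E, −0.27 for EIF4EBP1 (edgeR adjusted p = 0.020) and 0.63 for ULK1 (5.0e-07).

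**Figure D4:**
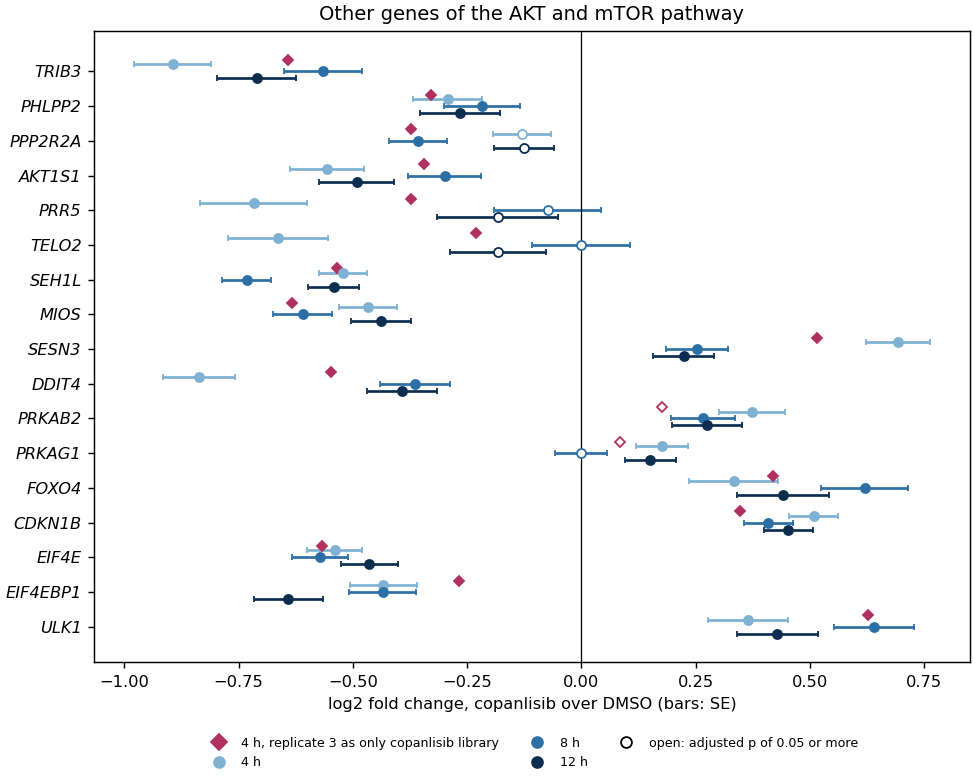
Log2 fold change of copanlisib over DMSO (points, with SE bars) for the other pathway genes that the naming rule chose, at 4, 8 and 12 h, and at 4 h with replicate 3 as the only copanlisib library (diamonds, no bars). Filled symbols passed an adjusted p of 0.05. TRIB3, AKT1S1, SEH1L, MIOS, DDIT4, EIF4E and EIF4EBP1 lie left of 0 at each time, and SESN3, PRKAB2, FOXO4, CDKN1B and ULK1 right of it.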

How the data were processed

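RNA sequencing was run on 18 libraries. The authors deposited raw read counts per gene, which are whole numbers with no normalization. Per the submitters' processing notes, CASAVA 1.7 and STAR 2.5.2b were used with hg38, while the release of the gene annotation is not stated in any source at hand. The tables hold 4 summary lines, left out here, and 3 count columns. The kit named in the labels does not mark strand, but the fourth file column held 94.3% to 95.3% of stranded reads, so its counts were used, and those without strand are an alternative. Reads that mapped to several places (9.21% to 10.1%) were not counted. GENCODE 29 gave coordinates, lengths and GC content, and RefSeq the promoters (GRCh38.p14).

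Genes were filtered with filterByExpr and scaled by TMM. One model with 6 group means (glmQLFit, all 18 libraries) gave two-sided tests by glmQLFTest (R 4.3.3, edgeR 4.0.16), with Benjamini-Hochberg adjustment over 16122 genes and a threshold of 0.05. SE is the log2 fold change divided by the square root of F. DESeq2 1.42.0 and limma 3.58.1 were alternatives, as were other scaling, filter, strand, threshold and library choices. The GC correction is an offset per library from medians in 20 GC bins.

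The members and lists were chosen with earlier results of these data known. Named were all 9 members, up to 3 genes per list (past the threshold at 1 or more times, average log2 CPM of at least 3, largest mean change) and the 3 genes most like each member. Some genes that this rule or a list holds are not reported here. Replicate numbers were not used as pairs in the main fit: 2 of 9 same-numbered pairs had deviations correlated above 0.1. With 3 libraries per group these correlations cannot show that no pairing exists.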

Additional observations from a re-analysis of the deposited data

Results flagged for a closer look

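The effect of copanlisib differed between times for 4 of the 9 genes by edgeR's test of the difference itself. Between 8 h and 4 h it differed on the log2 scale by 0.40 for TCL1A (adjusted p = 5.0e-04), 0.30 for AKT1 (0.0077), −0.27 for TSC1 (0.036) and −0.34 for RICTOR (0.031). For 12 h minus 4 h the values were 0.48 for TCL1A (adjusted p = 4.3e-05), 0.29 for AKT1 (0.010), −0.28 for TSC1 (0.038) and −0.32 for RICTOR (0.049). When replicate 3 stood alone for copanlisib at 4 h, the 12 h minus 4 h values of AKT1, TSC1 and RICTOR were 0.11, −0.19 and −0.11 (edgeR adjusted p = 0.37, 0.33 and 0.65) and the 8 h minus 4 h values were 0.12, −0.19 and −0.13 (0.38, 0.37 and 0.61), while those of TCL1A passed in both cases. After the GC correction, AKT1 (0.10 and 0.11) and RICTOR (−0.11 and −0.11) did not pass for either difference. Leaving out replicate 2 of copanlisib at 4 h ended the call of AKT1 for 12 h minus 4 h (0.24, edgeR adjusted p = 0.056), and the calls of TSC1 and RICTOR were lost on leaving out most of the single libraries in turn.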

How the results depend on the processing

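Of the log2 fold changes of the members under settings other than leaving out a library, 753 kept their side of the threshold, 53 lost it, 27 gained it and 4 reversed. A sign change of a value past the threshold in neither fit was not counted. Reversed were AKT2 at 4 h with replicate 3 alone (0.023) and TSC2 at 4 h with replicate 3 alone (0.18), with the GC correction (0.17) and with that correction and the replicate block (0.17). No setting moved the median of all genes by more than 0.034 on the log2 scale. Correlations of same-numbered deviations ran from −0.20 to 0.40, and 3 libraries matched their own number best, which does not settle whether libraries were paired. In the fit with the replicate block, RICTOR at 8 h (0.20, edgeR adjusted p = 0.054) and RICTOR for 12 h minus 4 h (−0.32, 0.053) lost their calls and AKT2 for 8 h minus 4 h gained one (0.24, 0.039).

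Fitting only the libraries compared gave 3 members called at 4 h (6 with all libraries), 2 for 8 h minus 4 h and 2 for 12 h minus 4 h (4 each), 4 for DMSO 8 h against 4 h (2) and 5 for DMSO 12 h against 8 h (3). Over all genes it gave 3733 at 4 h (6195), 1746 for 8 h minus 4 h (3086), 273 for 12 h minus 8 h (9) and 1719 for 12 h minus 4 h (2688). With all libraries, 4810 genes (29.8%) passed for DMSO 8 h against 4 h and 4151 (25.7%) for DMSO 12 h against 8 h. The counts over all genes for these DMSO comparisons are not given for this fit or for the GC correction. They are also not given for 12 h minus 4 h with the GC correction, or at 8 h for an adjusted p under 0.01. The member counts in these cases therefore have no share beside them and cannot be read as a result about the members. Replicate 3 alone gave 1 member for 8 h minus 4 h and 1 for 12 h minus 4 h, and 3778, 409 and 900 genes at 4 h and for those differences. The GC correction gave 2 members for 12 h minus 4 h and 4 for DMSO 8 h against 4 h, with 1226 genes for 8 h minus 4 h and 146 for 12 h minus 8 h. With the replicate block added it gave 2, 2 and 5 members for 8 h minus 4 h, 12 h minus 4 h and DMSO 8 h against 4 h, with 1239 and 141 genes for 8 h minus 4 h and 12 h minus 8 h. An adjusted p under 0.01 left 2 members at 8 h, 2 each for 8 h and 12 h minus 4 h and 1 for DMSO 12 h against 8 h, and 1062, 0, 1134, 3100 and 2646 genes for 8 h minus 4 h, 12 h minus 8 h, 12 h minus 4 h, DMSO 8 h against 4 h and DMSO 12 h against 8 h. For 12 h minus 8 h, 35 genes passed with no filter, 27 by DESeq2 and 5 with counts without strand.

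Leaving out 1 library at a time gave 4 to 7 members called at 4 h, 3 to 4 at 8 h, 1 to 3 at 12 h, 2 to 6 for 8 h minus 4 h, 1 to 6 for 12 h minus 4 h, 2 to 3 for DMSO 8 h against 4 h and 1 to 3 for DMSO 12 h against 8 h. Over all tested genes, 4312 to 4501 were called at 8 h and 3909 to 4135 at 12 h. For DMSO 8 h against 4 h 3819 to 4102 were called, and for DMSO 12 h against 8 h 3170 to 3446. The genes called ran from 1650 to 6353 for 8 h minus 4 h, 1596 to 5781 for 12 h minus 4 h, 0 to 5 for 12 h minus 8 h and 4903 to 7857 at 4 h, the highest without replicate 3 of copanlisib at 4 h. The cause of these shifts was not tested. TCL1A kept its calls at 8 h (0.54 to 0.59) and 12 h (0.62 to 0.66) in each of these fits.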
